A study of Rattus norvegicus with 48 samples.

Results

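Gbp1 (ENSRNOG00000023943), 1 of the 32883 genes in the deposited tables, was followed across left ventricles of male and female Sprague Dawley rats that had received methamphetamine or saline. It was chosen by the difference between methamphetamine and saline in males at day 11, since the study lists it among the genes changed there, so its values in that contrast are a description and are not tested. The rats, 8 weeks old when injections began, were injected under the skin for 10 days with saline or with methamphetamine, a psychostimulant (5 mg/kg daily). Hearts were taken 24 h after the final injection, called day 11, or after 30 further days without injections, called abstinence. Sex, treatment and time point make 8 groups, and 47 libraries were analysed. Each heart was rinsed of blood with Krebs solution on a Langendorff apparatus before it was frozen, and RNA of the left ventricle was sequenced. Offspring of several breeders were divided over all groups.

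Gbp1 encodes a guanylate-binding protein, a large GTPase that is among the genes most strongly induced by interferons, above all interferon-gamma. Guanylate-binding proteins assemble on the membranes of vacuoles and microbes inside the cell, and in the vessel wall Gbp1 is known as a marker of endothelial cells exposed to inflammatory cytokines. Many genes that interferons induce carry the ISRE, the interferon-stimulated response element, near their start sites. Ptprc encodes CD45, a phosphatase on the surface of all nucleated blood cells, and its level in heart RNA is used here as a measure of leukocyte RNA.

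RefSeq lists 2 start sites for rat Gbp1, and the windows from 250 bases before to 50 bases after each are shown with this motif marked. Both lie on the plus strand of chromosome 2 of GRCr8, at chr2:234071116-234071415 and chr2:234072187-234072486, and were matched by symbol. They read 5′ to 3′, with matches to the ISRE core (GAAANNGAAA, searched on both strands) in capitals.
Gbp1 window 1: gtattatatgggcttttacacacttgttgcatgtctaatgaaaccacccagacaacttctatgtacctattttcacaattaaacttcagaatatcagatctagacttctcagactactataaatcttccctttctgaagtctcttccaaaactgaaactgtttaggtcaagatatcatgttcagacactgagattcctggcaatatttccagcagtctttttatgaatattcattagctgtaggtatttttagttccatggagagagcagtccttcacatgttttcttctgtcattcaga
Gbp1 window 2: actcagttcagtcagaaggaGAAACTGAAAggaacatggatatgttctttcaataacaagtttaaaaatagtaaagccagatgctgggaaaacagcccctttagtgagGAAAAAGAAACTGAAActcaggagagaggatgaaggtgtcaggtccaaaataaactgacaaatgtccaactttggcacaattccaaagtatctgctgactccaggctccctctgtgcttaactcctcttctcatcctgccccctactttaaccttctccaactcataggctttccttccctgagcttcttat
Window 1 held 0 matches to the ISRE core and window 2 held 3, of which the first began 230 bases before the start site and the other two overlap each other. Of 33469 rat windows of this kind, 1312 (3.92%) held the ISRE core. The window of Ptprc, at chr13:52259697-52259996 on the minus strand, held 0. A match describes the letters of these windows and was not tested for binding, and the reads had been aligned to another build.

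Between 6661581 and 11314050 counts fell on genes in each library, and Gbp1 received 237 to 1134 counts, a counting error of 2.97 to 6.50% of its value. Levels are given in CPM, the counts of a gene per 1000000 counts on all genes of the library. Labels of sex were compared with 4 genes counted almost only in males and 2 genes high only in females. These genes were picked by label from the 39 libraries not titled replicate 5. The 8 libraries titled replicate 5, 1 in each group, went against their labels. Relative to the male median, male genes reached 83.6 to 113% in the 4 titled female and 7.21 to 11.5% in the 4 titled male. In the other libraries they reached 0 to 2.76% in females and 66.5 to 113% in males. Female genes, relative to the female median, stood at up to 16.3% in the 4 titled female and at no less than 72.4% in the 4 titled male. Each of the other 39 libraries matched its label, though the genes were picked from medians of those same libraries. Replicate 5 was set apart by the plan of the fits, not because of this check, and results are given without it. The value with it kept as labelled follows each comparison of Gbp1 between groups and its relation with Ptprc over all libraries. Libraries of 1 time point formed 1 sequencing pool, so time and pool cannot be told apart. Of the 8 cardiomyocyte markers listed for checking the tissue, 0 had an identifier that could be matched, so the labelled tissue was not checked with them.

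Gbp1 was lowest in saline-treated females at day 11 and highest in methamphetamine-treated males at day 11. Among females at day 11, the 4 saline libraries held 23.2, 33.5, 44.0 and 34.7 CPM, a mean of 33.9 ± 8.49 CPM (SD, n = 4). The 5 methamphetamine libraries held 76.7, 50.1, 58.7, 53.1 and 35.2 CPM, a mean of 54.8 ± 15 CPM (SD, n = 5). All but 1 of the methamphetamine libraries stood above every saline library, and the lowest, replicate 6, lay within the saline range. After abstinence, saline-treated females held 45.4, 40.8, 77.4, 53.6 and 48.3 CPM, a mean of 53.1 ± 14.4 CPM (SD, n = 5). Methamphetamine-treated females after abstinence held 116, 35.9, 70.9, 84.6 and 62.2 CPM, a mean of 73.9 ± 29.5 CPM (SD, n = 5). This group was the most scattered of the 8, with both the highest single value of all libraries and a value below every saline-treated female of its time point.

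In males at day 11, the saline libraries held 36.4, 32.8, 36.2, 51.4 and 71.1 CPM, a mean of 45.6 ± 16.0 CPM (SD, n = 5). With methamphetamine they held 98.7, 101.0, 79.0, 84.9 and 90.4 CPM, a mean of 90.8 ± 9.22 CPM (SD, n = 5). This contrast chose Gbp1, so the separation of its ranges is a description only. After abstinence, saline-treated males held 86.8, 70.5, 58.0, 95.03 and 84.3 CPM, a mean of 78.9 ± 14.7 CPM (SD, n = 5). Methamphetamine-treated males after abstinence held 76.8, 75.6, 106, 73.4 and 83.8 CPM, a mean of 83.1 ± 13.2 CPM (SD, n = 5). The ranges of the 2 male groups after abstinence overlapped, and both lay mostly above the male saline group of day 11.

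**Figure D1:**
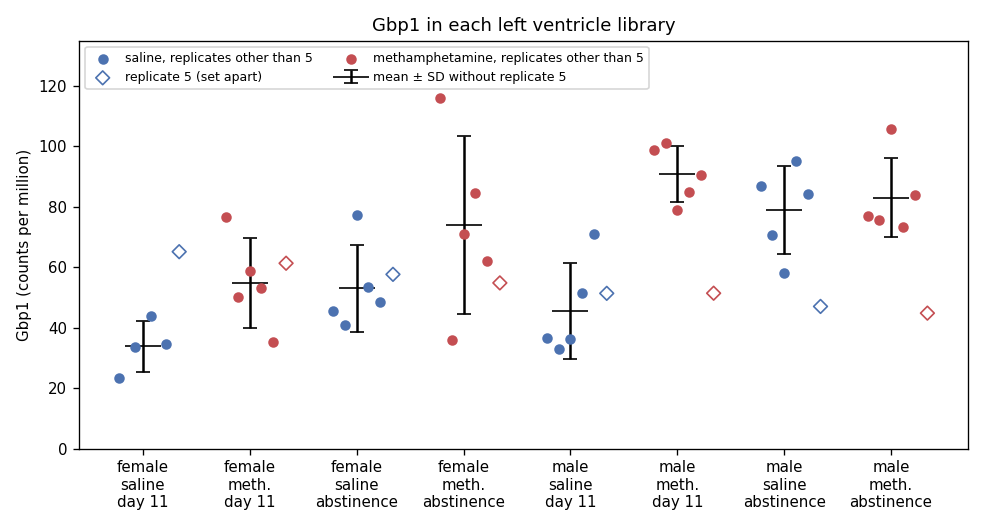
Gbp1 in CPM (vertical axis) in each library of the 8 groups (horizontal axis), with the mean and SD of the libraries other than replicate 5 in black and replicate 5 as open diamonds. Males given methamphetamine stood at 79.0 to 101.0 CPM at day 11 against 32.8 to 71.1 CPM with saline, the contrast that chose Gbp1. The 2 male abstinence groups overlap.

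From the lowest mean to the highest, the groups ran female saline at day 11, male saline at day 11, female saline after abstinence, female methamphetamine at day 11, female methamphetamine after abstinence, male saline after abstinence, male methamphetamine after abstinence and male methamphetamine at day 11. Each pair of neighbours in this order had overlapping ranges and differed by less than their pooled SD. The libraries titled replicate 5 held 65.1 and 61.3 CPM in the female groups at day 11 (saline, then methamphetamine) and 57.6 and 54.8 CPM after abstinence. Those labelled male held 51.4 CPM in both groups at day 11 and 47.0 and 44.8 CPM after abstinence. The replicate 5 library of female saline at day 11 lay above the other 4 of its group, and that of 3 male groups, all but saline at day 11, lay below the other 5.

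In females at day 11, Gbp1 rose with methamphetamine. It was 1.62-fold higher than with saline, a log2 fold change of 0.70 (standard error 0.19, 95% interval 0.28 to 1.11), with a Benjamini-Hochberg adjusted p of 0.0440 from edgeR's quasi-likelihood test. A gene was called at an adjusted p under 0.1, which 1319 of 13986 genes passed (9.43%), 598 of them higher with methamphetamine (4.28%). With replicate 5 kept, the log2 fold change was 0.48 and the adjusted p 0.370, within a range of 0.00848 to 0.370 over 20 alternatives, and 4.18% of genes were called. Leaving out methamphetamine replicate 1, the highest of its group, gave 0.54 and an adjusted p of 0.101, and leaving out saline replicate 1, the lowest of its group, gave 0.55 and 0.125, so the call ended in both cases.

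In the same comparison, Ptprc differed by a log2 fold change of 0.02 (95% interval -0.18 to 0.22, edgeR adjusted p = 0.948) and stood at 20.4 ± 1.41 CPM with saline (SD, n = 4) and 20.5 ± 2.65 CPM with methamphetamine (SD, n = 5).

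A marker of another part of the heart moved in the same comparison. Myl4, the atrial myosin light chain and the only one of 5 listed atrial genes with an identifier, ranged from 5.96 to 92.1 CPM in the saline-treated females at day 11 and from 3.0 to 5.67 CPM in the methamphetamine-treated females, a log2 fold change of -3.18 (edgeR adjusted p = 0.00419). In the 6 other groups its range was 0.753 to 35.5 CPM. Its part in the Gbp1 result was not tested. In bulk RNA such as this, fewer cells of a type and less RNA per cell cannot be told apart.

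Among day 11 males, the contrast from which Gbp1 was chosen, Gbp1 was 2.01-fold higher in treated rats, which is 1.01 on the log2 scale (standard error 0.17). Among all 13887 genes tested, 908 were called (6.54%), 468 of them higher (3.37%), and nothing is read from the place of Gbp1 among them. With replicate 5 kept, the log2 fold change was 0.86, and edgeR then called 0 of 13753 genes, although 2020 had an unadjusted p under 0.05. DESeq2, without replicate 5, called 1500 genes. Ptprc stood at 28.5 ± 2.09 CPM with saline and 24.6 ± 3.45 CPM with the drug (SD, n = 5 each), a log2 fold change of -0.21 (95% interval -0.43 to 0.01, edgeR adjusted p = 0.246). This did not pass the test. The saline-treated males of day 11 all bore rat numbers of an earlier series than the methamphetamine-treated males, so rat series and treatment cannot be told apart here.

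After abstinence the difference in Gbp1 between treatments did not pass the test in either sex. In females the log2 fold change was 0.42 (standard error 0.25, 95% interval -0.11 to 0.96, edgeR adjusted p = 0.994), and 0.34 with replicate 5 kept. Single libraries moved this value: it was 0.21 without methamphetamine replicate 1, 0.58 without methamphetamine replicate 2 and 0.59 without saline replicate 3, and it passed the test in none of these fits. In this comparison edgeR called 0 of 13610 genes (0%), with 541 at an unadjusted p under 0.05, and DESeq2 called 20 of 17570. The leukocyte gene was scattered in the treated group. Ptprc stood at 22.2 ± 2.08 CPM with saline and 40.7 ± 22.8 CPM with methamphetamine (SD, n = 5 each), where the 5 libraries held 24.6, 19.4, 76.4, 48.5 and 34.6 CPM. Its log2 fold change of 0.81 (95% interval 0.20 to 1.43) had an edgeR adjusted p of 0.994, and Ptprc is on the study's own list for this contrast. The library highest in Ptprc, replicate 3, held 70.9 CPM of Gbp1, near the mean of its group, and the library highest in Gbp1, replicate 1, held 24.6 CPM of Ptprc.

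In males after abstinence, the log2 fold change of Gbp1 was 0.07 (standard error 0.12, 95% interval -0.19 to 0.33, edgeR adjusted p = 0.998), and 0.05 with replicate 5 kept. Only 14 of 13621 genes were called (0.103%). Without methamphetamine replicate 3, which was the highest of its group, or without saline replicate 3, the lowest of its group, the sign of the difference turned, to -0.029 and -0.013. Ptprc differed by -0.22 (95% interval -0.48 to 0.03, edgeR adjusted p = 0.907).

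**Figure D2:**
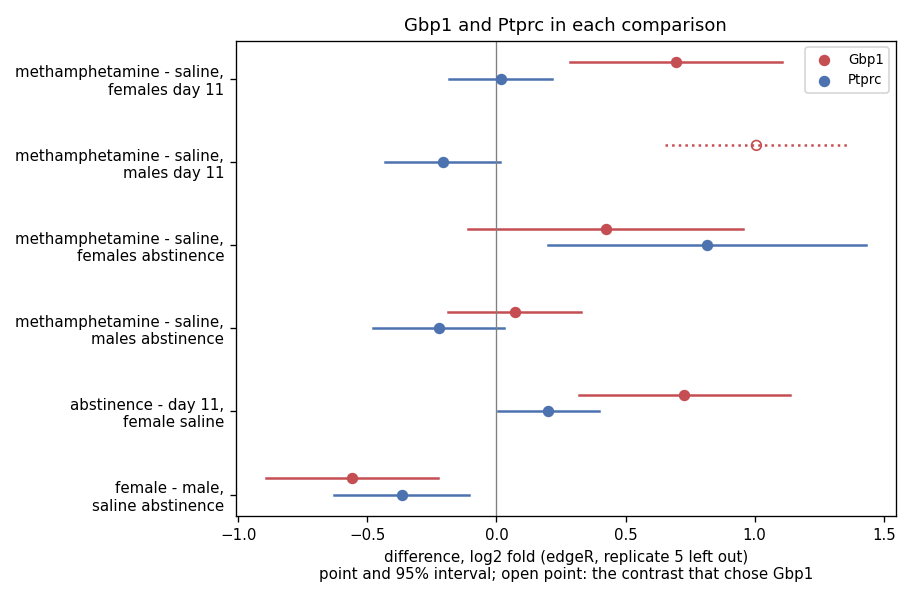
Log2 fold differences (horizontal axis) of Gbp1 and Ptprc in each comparison (vertical axis), fitted by edgeR without replicate 5, as points with 95% intervals. The open point marks males at day 11, the contrast that chose Gbp1. In females at day 11 the interval of Gbp1 (0.28 to 1.11) lies above 0 while that of Ptprc (-0.18 to 0.22) spans it.

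Whether the effect of methamphetamine on Gbp1 in females differed between the time points was tested as an interaction. The effect at day 11 exceeded that after abstinence by 0.27 on the log2 scale (standard error 0.35, 95% interval -0.46 to 1.01, edgeR adjusted p = 0.928), in a fit that called 175 of 14179 genes (1.23%). The interval is wide enough to hold a difference of either sign. With replicate 5 kept the excess was 0.15 (edgeR adjusted p = 0.962). The same test was not made in males, nor between the sexes at day 11, because both would use the contrast that chose the gene.

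Gbp1 also differed among saline-treated rats. In saline-treated females it was higher after abstinence than at day 11, by a log2 fold change of 0.73 (standard error 0.19, 95% interval 0.32 to 1.14, edgeR adjusted p = 0.0928), a fold of 1.66 in a fit that called 327 of 13688 genes (2.39%). With replicate 5 kept the log2 fold change was 0.50 and the adjusted p 0.343, and over 20 alternatives the adjusted p ran from 0.0188 to 0.60. The call ended when any library but female saline abstinence replicate 2 was left out, with log2 fold changes of 0.57 to 0.87 and adjusted p of 0.0794 to 0.248 over the 9 omissions. The comparison shares its day 11 libraries with the comparison of treatments in females, and Myl4 moved here too, by a log2 fold change of -3.49 (edgeR adjusted p = 0.0310), from 5.96 to 92.1 CPM at day 11 to 1.93 to 4.46 CPM after abstinence. Ptprc, with a log2 fold change of 0.20 (edgeR adjusted p = 0.334), did not pass the test.

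Among saline-treated rats after abstinence, all from 1 sequencing pool, Gbp1 was lower in females than in males. The log2 fold change, female against male, was -0.56 (standard error 0.16, 95% interval -0.89 to -0.23, edgeR adjusted p = 0.0549), in a fit that called 1247 of 13538 genes (9.21%). With replicate 5 kept it was -0.42 with an adjusted p of 0.231, and over 21 alternatives the adjusted p ran from 0.00691 to 0.556. The call ended when female replicate 1 or 6, or male replicate 1, 4 or 6, was left out, with adjusted p of 0.109 to 0.144 in those 5 fits and log2 fold changes of -0.72 to -0.47 over all 10 omissions. Ptprc was also at a lower mean in females, 22.2 ± 2.08 CPM against 28.8 ± 5.46 CPM in males (SD, n = 5 each), with a log2 fold change of -0.37 (95% interval -0.63 to -0.10) that did not pass the test (edgeR adjusted p = 0.102).

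**Figure D3:**
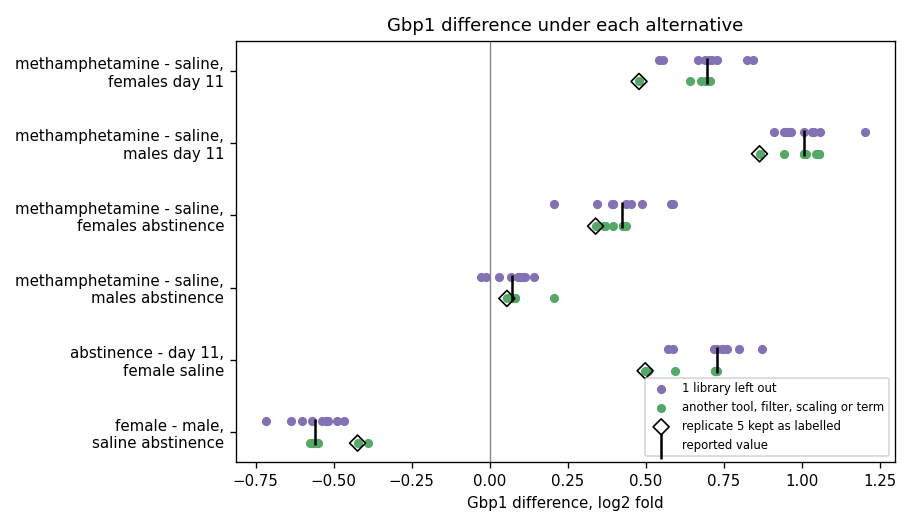
Log2 fold difference of Gbp1 (horizontal axis) in each comparison (vertical axis) as reported (black bar), with each library left out in turn (purple), and under another tool, filter, scaling or added term (green), with replicate 5 kept shown as a diamond. Keeping replicate 5 moved the estimate toward 0 in all 6 comparisons, for example from 0.70 to 0.48 in females at day 11.

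Whether Gbp1 followed leukocyte content was asked among rats treated alike. Each library was taken as its log2 CPM minus the mean of its group, and p-values came from 100000 permutations within groups, two-sided, adjusted over a family of 6 relations. Over 39 libraries, Gbp1 and Ptprc had a Pearson's r of 0.09 (permutation p = 0.777, adjusted p = 0.777) and a Spearman's rho of 0.09 (permutation p = 0.636, adjusted p = 0.764). Without the 2 libraries farthest from the median of Ptprc, which were methamphetamine-treated females after abstinence, replicates 3 and 4, r was 0.07. With replicate 5 kept as labelled, both were larger, r at 0.29 (permutation p = 0.123) and rho at 0.26 (permutation p = 0.110). Within the sequencing pools, r was -0.29 at day 11 (n = 19, permutation p = 0.223, adjusted p = 0.575) and 0.24 after abstinence (n = 20, permutation p = 0.592, adjusted p = 0.764). The corresponding values of rho were -0.26 (permutation p = 0.288) and 0.40 (permutation p = 0.145). No relation of Gbp1 with Ptprc among libraries treated alike was therefore detected at this number of libraries. Ptprc received 136 to 700 counts over all 47 libraries. Its SD within groups ran from 6.91% of the mean (saline-treated females, day 11) to 56.1% (methamphetamine-treated females, abstinence). Counting error is part of such deviations and draws r toward 0, so a relation could be missed.

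In the fits of all genes, the log2 CPM of Ptprc was added as a covariate, an alternative chosen after values were seen. The log2 fold change of Gbp1 in females at day 11 was then 0.68 (edgeR adjusted p = 0.0488), close to the 0.70 without it. Ptprc differed there by a log2 fold change of only 0.016. The covariate could therefore move this estimate little, whether or not Gbp1 followed Ptprc. The same covariate took the difference between time points in saline-treated females to 0.51 (edgeR adjusted p = 0.60) and that between the sexes to -0.39 (edgeR adjusted p = 0.556), and both calls ended. Calls over all genes fell as well, from 327 to 11 and from 1247 to 113. At day 11 they fell from 1319 to 1153 in females and from 908 to 10 in males. Ptprc itself had an unadjusted edgeR p of 0.0454 for time and 0.00955 for sex, so covariate and group overlap. Whether leukocyte content made up the differences in Gbp1 by treatment, time or sex was not tested. In males the difference in Gbp1 with Ptprc in the fit was 0.94 at day 11 and 0.21 after abstinence, where it was 0.07 without the covariate and passed the test in neither fit.

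The 50 genes whose deviations were most like those of Ptprc, with r of 0.73 to 0.86, are described beside it. They were picked to follow Ptprc, which draws their r with Gbp1 toward its own, so they are no separate test. Their r with Gbp1 had a median of 0.04 and ran from -0.21 to 0.27, beside a median of -0.01 over all genes. Without the 2 libraries named above, but with the same 50 genes, which were picked with those 2 included, the median was -0.05. These 50 genes were taken from the same libraries and have no annotation here as leukocyte genes.

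**Figure D4:**
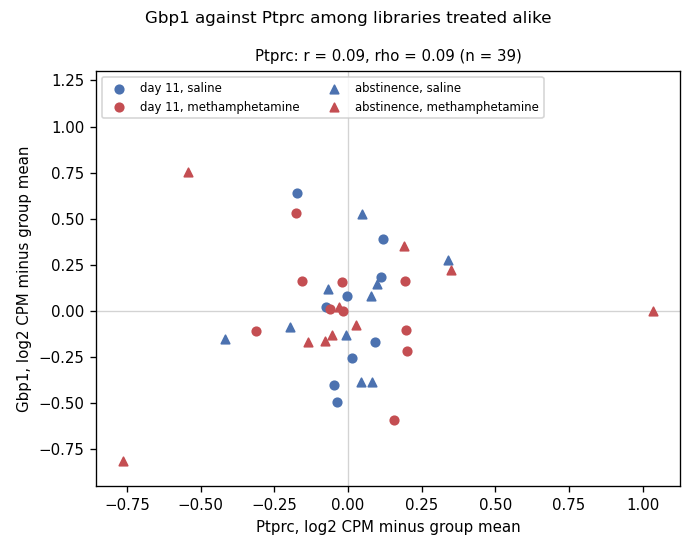
Gbp1 (vertical axis) against Ptprc (horizontal axis), each as log2 CPM minus the group mean, in 39 libraries, with circles for day 11, triangles for abstinence and red for methamphetamine. The points form no slope (r = 0.09).

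Over all 14457 genes that passed the filter on low counts, r with Gbp1 had a median of -0.01, and the middle 90% of genes lay between -0.43 and 0.41. The 10 genes most like Gbp1 had r of 0.70 to 0.61, led by ENSRNOG00000029071 at 0.70 and ENSRNOG00000019508 at 0.69, and 0 of these 10 could be given a symbol. With replicate 5 kept, none of the 10 stayed among the leading 10, and with Spearman's rho 4 did. Ptprc ranked 5308 of all genes. The following genes, from the 326 with a symbol reported here, were named after their values were seen. The positive end began with Uck2, a uridine-cytidine kinase, at 0.51 and Thbs2, a matrix protein of the thrombospondin family, at 0.50. Next came Gas7 at 0.47 and Col4a2, a collagen of basement membranes, at 0.46. Over all 14457 genes these ranked 134, 177, 302 and 347. With replicate 5 kept, Uck2 stood at 0.10, Thbs2 at 0.20, Gas7 at 0.31 and Col4a2 at 0.22. The lowest of these was Cfp, which encodes properdin, a complement factor released by leukocytes, at -0.60, and -0.50 with replicate 5 kept. These likenesses are over 39 libraries that share 2 sequencing pools, and the r of Gbp1 with the log2 of total counts, both as deviations, was 0.24.

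**Figure D5:**
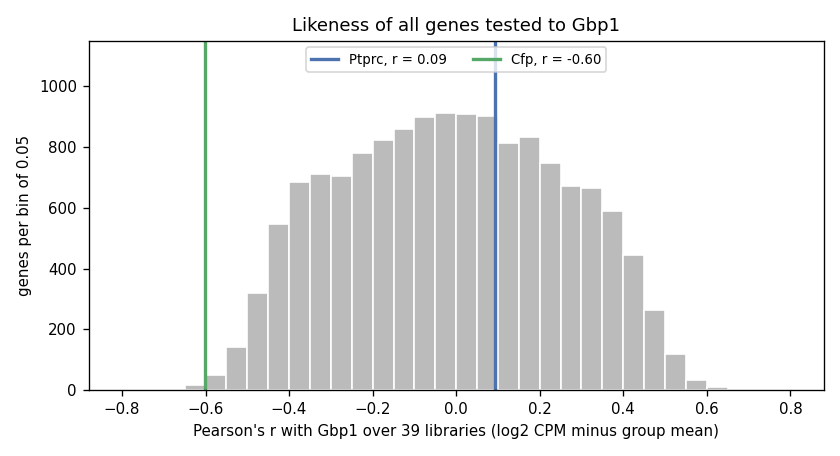
Number of genes (vertical axis) by their Pearson's r with Gbp1 over 39 libraries (horizontal axis), with Ptprc and Cfp marked. Ptprc (0.09) lies in the middle of all genes and Cfp (-0.60) below the range of the middle 90%.

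Other members of the guanylate-binding protein family and further interferon genes were not analysed here by name, because of 7 family members and 31 type I interferon targets, 1 and 0 had an identifier that could be matched. How reads shared between Gbp1 and near-identical family members or the pseudogene Gbp1-ps1 were counted is not given in the sources used here, so the Gbp1 level may include or lack such reads.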

How the data were processed

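RNA of the left ventricle was sequenced from 48 rats in 8 groups, and 47 libraries were analysed, the other (saline-treated female, day 11, replicate 3) being not analysed here. Reads were trimmed by the authors (Trimmomatic 0.38), aligned with HISAT2 2.1.0 to rn6 (Rnor_6.0) and assigned to Ensembl genes with GenomicAlignments. The authors deposited the count of reads per gene, not normalized. A second deposited table holds a signal that equals those counts divided by 1 size factor per library. It served only for alternatives. Library totals ranged from 6661581 to 11314050 counts. No 2 libraries of a group were duplicates: over 115 pairs the chi-square divided by its degrees of freedom was 2.31 to 38.0.

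Groups were taken from the labels. Counts were fitted over all genes with edgeR 4.0.16 in R 4.3.3 (TMM, filterByExpr, quasi-likelihood test), each comparison on its own libraries without replicate 5, with Benjamini-Hochberg adjusted p under 0.1 as the call. Levels are CPM, and intervals are at 95%. Relations used log2 CPM (prior count 2) and Python 3.11.15. Alternatives were DESeq2 1.42.0, limma 3.58.1 on the deposited signal with a pseudocount of 1 or 0.1, RLE factors, no filter, at least 10 counts in every library, all groups in a single fit, an adjusted p under 0.05, the replicate number as a block, the series of rat numbers, replicate 5 kept, and each library left out. Fits were tested on simulated data, which recovered 94.5% of 200 genes with a 2-fold change in the design of females at day 11 (13986 genes), and 81.5% (13610 genes) and 91.5% (13621 genes) in females and males after abstinence. Of the calls made there, 9.13%, 8.94% and 14.1% were false, in the same order.

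Named genes were Gbp1, Ptprc, matched members of the listed interferon and cell type genes, and the 10 genes most like Gbp1 by r. Gbp1 and the lists were chosen with earlier results of these data known. Symbols for 327 genes came from the study's tables, since no annotation with rn6 Ensembl identifiers was at hand. Of the lists, the guanylate-binding proteins (1 of 7), leukocytes (1 of 10) and atrium (1 of 5) had a matched member. Those of type I interferon targets, interferon ligands and receptors, macrophages, T and NK cells, B cells, neutrophils, endothelium, cardiomyocytes, fibroblasts, red cells and platelets had 0, and no list was tested. A further gene of the lists is not reported here. Promoter windows are from RefSeq (GRCr8).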

Additional observations from a re-analysis of the deposited data

Results flagged for a closer look

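All 8 libraries titled replicate 5 went against the sex of their label, which was seen in 4 male and 2 female genes outside the comparisons. Whether the titles or the animals were exchanged was not tested. In 32 tests of a group for an outlying sample (2 genes, 8 groups, with and without replicate 5), no library was outlying in Gbp1 or Ptprc.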

How the results depend on the processing

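Of the 20 to 22 alternatives tried for each Gbp1 difference (30 for the interaction), none turned the sign of a called value. The treatment effect in females at day 11 lost its call in 4 of 20: with replicate 5 kept (0.48), with the replicate block (0.64) and without 2 single libraries, over a leave-one-out range of 0.54 to 0.84. In males at day 11 the untested value ran from 0.86 to 1.2. In females after abstinence the uncalled value ran from 0.21 to 0.59 over the omissions. In males after abstinence the sign turned without either library numbered 3 (-0.029 and -0.013, leave-one-out range -0.029 to 0.14). In saline-treated females the time difference lost its call in 13 of 20, with replicate 5 kept (0.50), at least 10 counts in every library (0.72), the replicate block (0.59), Ptprc as a covariate (0.51), an adjusted p under 0.05 (0.73 as before) and 8 of 9 omissions (0.57 to 0.87). The sex difference lost it in 10 of 21, with replicate 5 kept (-0.42), all groups in a single fit (-0.55), the replicate block (-0.58), Ptprc as a covariate (-0.39), an adjusted p under 0.05 (-0.56 as before) and 5 of 10 omissions (-0.72 to -0.47). The cause was not tested. The interaction stayed uncalled in all 30 (0.10 to 0.49). Without subtracting group means, Spearman's correlation with Ptprc was 0.35, a value that includes the difference which chose Gbp1 and is a description only.

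Replicate numbers did not pair the rats: the correlation of deviations exceeded 0.1 in 3 of 19 same-numbered pairs (-0.47 to 0.15), and the samples share only a number. The block took called genes from 1319 to 902 in females at day 11, from 908 to 1281 in males at day 11, from 14 to 30 in males after abstinence, from 327 to 75 in the time comparison and from 1247 to 497 in that of the sexes.

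Counts of called genes over all alternatives ran from 581 to 1411 in females at day 11, 0 to 1500 in males at day 11 (both replicate 5 kept at the low end), 0 to 163 in females and 0 to 68 in males after abstinence, 11 to 594 for time, 113 to 1965 for sex and 33 to 395 for the interaction. Depth was not limiting for Gbp1, whose counting error was at most 6.50%.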
